A study of Mus musculus with 4 samples.

Results

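The genes described here are 35 p53 targets and GADD45 stress genes, chosen by name from knowledge of the pathway. On the arrays 32 of the 35 had a probe set that lists that gene as its only symbol, out of 18193 genes with such a probe set, and the probe set with the highest mean log2 value over the 4 arrays stood for each gene. Trp53, Bax and Gdf15 were not analysed here. All 32 measured genes passed the filter on dim probe sets that was applied to every gene (the 40th percentile of mean log2 value), so none was left out for its level. The RNA came from mouse embryonic stem (ES) cells on 4 arrays, 2 labelled wildtype and 2 labelled SOCS3 null, which lack the SOCS3 protein; it binds cytokine receptors of the gp130 family and JAK kinases and damps STAT3 activity. Neither group has a strain, clone, passage, culture medium, LIF dose or treatment in the labels, and how the gene was removed is not given there either. The labels do not state whether the paired arrays of a genotype represent separate cultures, and the p-values therefore reflect array-to-array spread that may be technical.

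p53 is a transcription factor that cells hold at a low level through Mdm2, a ubiquitin ligase that p53 itself induces. DNA damage and other stress stabilise p53, which then activates genes that stop the cell cycle, repair DNA, adjust metabolism or start cell death. Mouse ES cells contain much p53 and have a weak G1 checkpoint, and several of these genes are also induced without p53, by growth factors, cytokines or differentiation. The GADD45 proteins are small stress sensors that bind cell cycle kinases, PCNA and the kinase MTK1, and each has its own inducers.

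The p53 inhibitor Mdm2 and 5 of 8 cell cycle genes (62.5%) rose in SOCS3 null cells. So did 4 of 8 genes of the mitochondrial and caspase route of death (50%). Of 5 DNA repair genes 1 rose (20%, where 13.1% of all genes tested rose). Of the 32 measured genes 14 rose and 1 fell, while 17 missed the threshold, a limma adjusted p under 0.05 over all 12732 genes tested. The share that rose was 43.8%, where 13.1% of all genes tested rose, and the share that fell was 3.12%, where 9.55% of all genes fell. Both SOCS3 null arrays lay above both wildtype arrays for 23 of the 32 genes, against 32.3% of all genes, and below both for 3, against 33.6%. A called rise of at least 1 on the log2 scale was seen for 9 of them, against 5.89% of all genes. The median log2 change, SOCS3 null minus wildtype, was 0.65 for the 32 genes and 0.00 for all genes tested. Changes ran from -1.07 for Gadd45a to 1.77 for Gadd45g, both of the same small family. The genes were listed with earlier results of these arrays known, so these counts are a description.

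**Figure D1:**
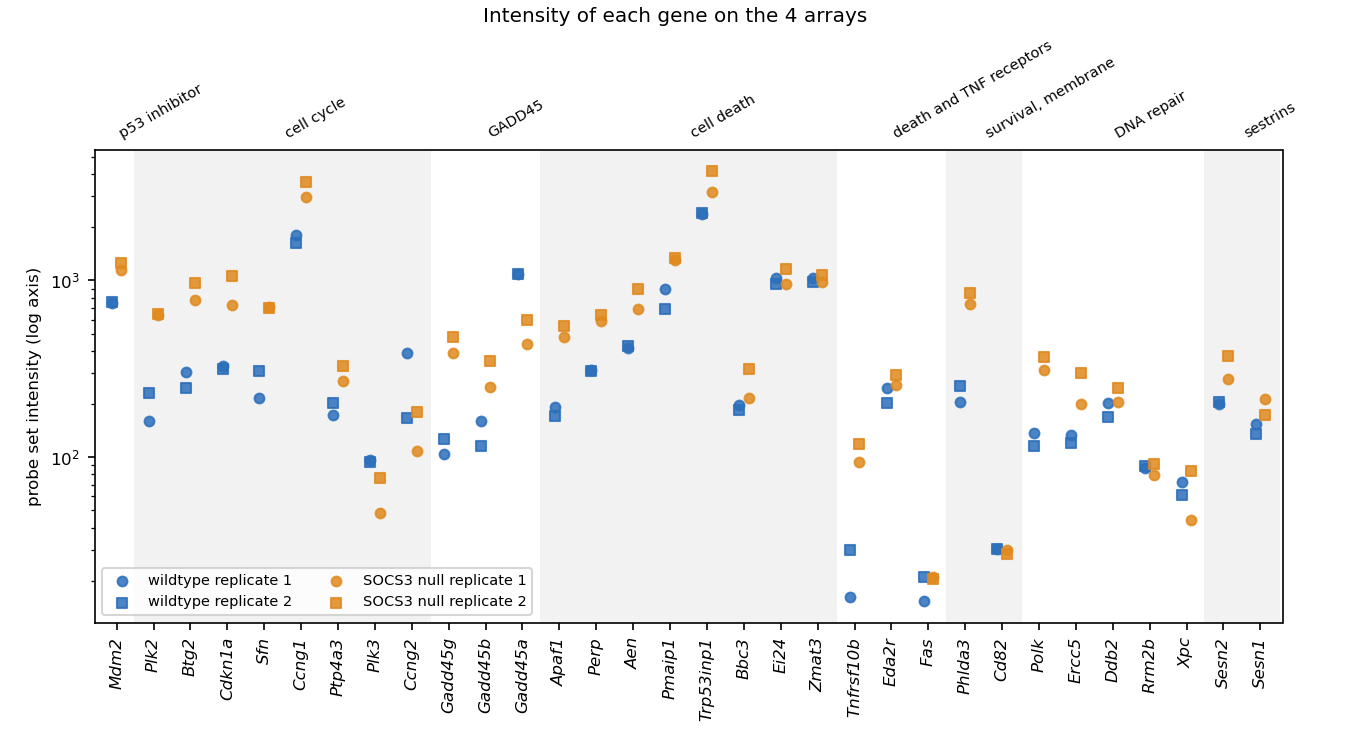
Probe set intensity (log axis) of the 32 measured genes on the 4 arrays, grouped by role; blue points are wildtype and orange points SOCS3 null, circles replicate 1 and squares replicate 2. For 23 genes both orange points lie above both blue points, and Gadd45a is the brightest of the genes where both lie below.

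These calls rest on all 4 arrays. With any 1 array left out limma called 0 of the 32 genes and 0 of all genes, while 13 to 19 of the 32 had an unadjusted p under 0.05 in the upward direction. Intensity was measured in bulk RNA, where fewer cells of a type and less RNA per cell cannot be told apart.

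The targeted gene followed the labels: Socs3 read 3024 and 1884 in wildtype but 19.3 and 12.9 in the null cells. Replicates correlated at 0.995 (wildtype) and 0.987 (null) in log2 value, and pairs of unlike genotype at 0.938 to 0.948. ES cell markers were bright in both genotypes, with summed intensities of 80937 and 81130 over 10 genes in wildtype, against 68355 and 64793 in null cells; Sox2 and Fgf4 fell and 0 rose. Of 12 primitive endoderm markers 11 rose (91.7%, against 13.1% of all genes), and the sum of the 12 went from 1501 and 1490 to 38312 and 40737. Hnf4a stayed near background at 9.79 to 15.5 on the 4 arrays. Sox17, Foxa2 and Gata4 were tested only through their null arrays. Their wildtype mean log2 values of 4.34, 4.51 and 4.71 lay below the filter floor of 4.72. Fibroblast markers were present on every array, with sums of 3472 and 5991 in wildtype and 6118 and 3886 in null cells over 12 genes. Of the 11 fibroblast genes tested 0 passed the limma test (1, Pdgfrb, had an unadjusted p under 0.05), and Lum, at 6.00 to 7.96, was below the filter. The part of either marker list in the results on p53 targets was not tested.

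Mdm2, the inhibitor and ubiquitin ligase of p53, rose in the null cells. Its intensity was 745 and 751 in wildtype, against 1145 and 1247 in null cells. The genotypes did not overlap, and the gap between them was several times that between replicates. The log2 change was 0.66 (SE 0.09, adjusted p = 0.018), or 1.60-fold in mean intensity. A dimmer Mdm2 probe set changed by 1.02 and was also called.

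Of 8 genes that act on the cell cycle 5 rose (62.5%, against 13.1% of all genes), 0 fell and 3 did not pass. Their median log2 change was 1.16. Cdkn1a encodes p21, the inhibitor of cyclin-dependent kinases through which p53 stops cells in G1. It was at 326 and 314 in wildtype and at 730 and 1060 in null cells. The null arrays lay far apart from each other, yet both were well above wildtype. Its log2 change was 1.41 (SE 0.20, adjusted p = 0.0219), and its other probe set gave 1.42. Ccng1, which encodes cyclin G1, a partner of protein phosphatase 2A in feedback on Mdm2, was the brightest of the genes that rose. It went from 1801 and 1636 to 2974 and 3584, a log2 change of 0.92 (SE 0.13, adjusted p = 0.0214). Its 3 probe sets rose by 0.76 to 0.92 and all were called.

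Cdkn1a and Ccng1 were also the genes of the set with a full p53 site in a promoter window, shown here because both rose. The windows are RefSeq sequence of mouse build GRCm38.p6, taken from 250 bases before to 50 bases after each annotated start. The site searched for was a pair of adjacent p53 decamers, 20 bases in all, with at most 2 mismatches to the consensus and the C and G of each core kept; the consensus is its own reverse complement, so the search covers both strands. Such a site stood in 2 of 26 genes with a window and in 0.392% of the 27025 genes in the table. Of the 26 genes 23 were measured on the arrays, and the others were Trp53, Bax and Gdf15. The stretches before the start are printed 5′ to 3′ on the gene's strand, with the site in capitals: Cdkn1a at chr17:29090729-29090978 on the plus strand and Ccng1 at chr11:40755310-40755536 on the minus strand. The Ccng1 stretch holds 227 of the 250 bases: those nearest to the start of its window lie within the annotated gene and are not printed, so positions cannot be counted back from its last letter.
Cdkn1a: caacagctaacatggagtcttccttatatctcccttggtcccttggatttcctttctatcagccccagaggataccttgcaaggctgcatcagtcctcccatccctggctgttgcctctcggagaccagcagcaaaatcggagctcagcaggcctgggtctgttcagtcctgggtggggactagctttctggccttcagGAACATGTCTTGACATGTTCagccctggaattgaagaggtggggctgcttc
Ccng1: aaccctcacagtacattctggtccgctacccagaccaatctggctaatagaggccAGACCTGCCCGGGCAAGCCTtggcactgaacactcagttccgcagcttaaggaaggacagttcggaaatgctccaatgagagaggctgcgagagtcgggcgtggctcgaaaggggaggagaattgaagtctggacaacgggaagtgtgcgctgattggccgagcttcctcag
Each site had 1 mismatch. The site in Cdkn1a began 51 bases before the annotated start of the printed window, and that in Ccng1 began 195 bases before it. A gene can have more than 1 annotated start, as the 26 genes had 36 windows. Distances to other starts of these genes were not measured. A single decamer without mismatch stood in 10 of the 26 genes, against 9.55% of all genes. Mdm2, Aen, Polk, Sesn1, Ei24 and Gadd45a were among the 10, as were Trp53 and Bax, which were not measured. These matches describe letters only. The genes were chosen by name as p53 targets and GADD45 stress genes, so a share of p53 sites above that of all genes may follow from the choice. Of the genes that rose 11 had a window, and Btg2, Sfn and Gadd45g were among those with no decamer in it.

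The other cell cycle genes that rose, Btg2, Plk2 and Sfn, are known as p53 targets, and Btg2 and Plk2 also as early response genes. Btg2, an antiproliferative factor that promotes mRNA deadenylation, was at 302 and 245 in wildtype and at 778 and 973 in null cells, a log2 change of 1.62 (SE 0.17, adjusted p = 0.0119). Its second probe set changed by 2.30. Plk2, a polo-like kinase of the stress response, went from 160 and 232 to 640 and 646. In that gene the replicates of the null cells were close, and the change was 1.66 (SE 0.19, adjusted p = 0.0144). Sfn, which encodes 14-3-3 sigma, a keeper of mitotic kinases in the cytoplasm and a marker of epithelium, went from 217 and 308 to 709 and 699 (log2 change 1.39, SE 0.19, adjusted p = 0.0188).

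Members of the same families behaved differently. Plk3, a relative of Plk2, was at 95.9 and 93.6 in wildtype and at 48.1 and 76.4 in null cells, with both null arrays below wildtype and a log2 change of -0.53 that did not pass (adjusted p = 0.152). Ccng2, which encodes cyclin G2, a gene induced more by FoxO factors than by p53, was at 387 and 167 in wildtype and at 109 and 179 in null cells. These groups overlapped, the wildtype arrays differed by more than the genotypes did, and the change of -0.80 (SE 0.47) did not pass. The phosphatase gene Ptp4a3 was at 174 and 204 in wildtype and 269 and 328 in null cells, a change of 0.62 just outside the threshold (adjusted p = 0.0556).

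The 3 GADD45 genes split. Gadd45g was at 104 and 126 in wildtype and at 388 and 478 in null cells. Both null arrays were far above the wildtype arrays, and the log2 change of 1.77 (SE 0.15, adjusted p = 0.00934) was the highest among the 32 genes. Gadd45a, the member most directly regulated by p53, was at 1090 and 1086 in wildtype and at 437 and 598 in null cells. The wildtype arrays were nearly equal, and both null arrays lay far below them. Its log2 change was -1.07 (SE 0.17, adjusted p = 0.0274), a 2.10-fold decrease, and it was the only gene of the set that fell. Gadd45b, induced by NF-kappa B and TGF-beta, was at 161 and 115 in wildtype and 250 and 348 in null cells. Its groups did not overlap, but the change of 1.03 (SE 0.24) had a limma adjusted p of 0.0535. It passed under 4 of 11 alternative settings that used all 4 arrays, which include settings added after the data were seen.

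The stretches before the start of the GADD45 genes are printed because Gadd45a and Gadd45g moved in opposite directions. Capitals mark the octamer ATTTGCAT on either strand, the element bound by POU domain factors such as Oct-1 and Pou5f1, which has been studied in the Gadd45a promoter beside a CCAAT box. Gadd45a is at chr6:67037408-67037657 on the minus strand, Gadd45g at chr13:51846425-51846674 on the plus strand and Gadd45b at chr10:80929841-80930090 on the plus strand, all in GRCm38.p6.
Gadd45a: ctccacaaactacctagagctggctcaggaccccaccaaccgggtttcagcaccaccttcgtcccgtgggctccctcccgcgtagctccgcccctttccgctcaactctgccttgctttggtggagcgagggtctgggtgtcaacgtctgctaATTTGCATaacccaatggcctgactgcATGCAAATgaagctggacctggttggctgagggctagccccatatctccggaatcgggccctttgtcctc
Gadd45g: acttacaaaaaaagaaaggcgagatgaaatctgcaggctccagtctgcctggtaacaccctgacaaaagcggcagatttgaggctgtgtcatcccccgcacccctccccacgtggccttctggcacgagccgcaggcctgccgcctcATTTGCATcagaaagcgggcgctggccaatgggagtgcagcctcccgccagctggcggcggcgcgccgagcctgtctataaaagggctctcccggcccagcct
Gadd45b: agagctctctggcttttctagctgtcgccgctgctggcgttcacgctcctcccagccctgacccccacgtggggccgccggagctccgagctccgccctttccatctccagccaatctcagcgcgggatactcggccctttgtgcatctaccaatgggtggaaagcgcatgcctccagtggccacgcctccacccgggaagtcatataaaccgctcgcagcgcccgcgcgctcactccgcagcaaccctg
Gadd45a held the octamer at 97 and 70 bases before the start and Gadd45g at 103 bases, while the window of Gadd45b held none. Over the table the octamer stood in 1.97% of genes and, among the 26 genes of the set with a window, in 3, the other being Eda2r. CCAAT, searched on both strands and not overlapping the octamers, stood in all of the GADD45 windows. It stood in 16 of the 26 genes, Trp53 and Gdf15 included, and in 41.1% of all genes. The octamer stood in the windows of Gadd45a, which fell, and of Gadd45g, which rose. Its part in either change was not tested. TTCNNNGAA, the letters of a STAT binding element, stood in 3 of 26 genes, Fas, Cd82 and Polk, and in 9.55% of all genes; the GADD45 windows held none.

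Of 8 measured genes of the mitochondrial and caspase route of cell death 4 rose (50%, against 13.1% of all genes). None fell and 4 did not pass. Apaf1, the scaffold of the apoptosome that activates caspase-9, was at 191 and 170 in wildtype and at 476 and 555 in null cells. It rose by 1.43 on the log2 scale (SE 0.12, adjusted p = 0.00895), and its dimmer probe set rose by 0.92. Perp, a membrane protein of desmosomes and of p53-dependent death, had close replicates in both genotypes, at 313 and 308 in wildtype and 593 and 640 in null cells (log2 change 0.95, SE 0.08, adjusted p = 0.00945). Aen, a nuclease of apoptosis, went from 416 and 427 to 686 and 893 (0.87, SE 0.15, adjusted p = 0.0322). Of its 4 probe sets 1 was called, and the others changed by -0.04 to 0.47.

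Pmaip1 and Bbc3 encode BH3-only proteins, which bind and block the Bcl-2 survival proteins. Pmaip1, which encodes Noxa, was at 891 and 691 in wildtype and 1304 and 1344 in null cells, a log2 change of 0.74 (SE 0.15) with an adjusted p of 0.0418. It was called in 8 of 11 alternatives with all arrays, and its adjusted p over all probe sets was 0.0541. Bbc3, which encodes Puma, was at 197 and 186 in wildtype and at 217 and 316 in null cells. Its change of 0.42 (SE 0.20) did not pass. Trp53inp1, a p53 cofactor, was the brightest gene of the set in null cells at 3184 and 4133 against 2371 and 2416, but its change of 0.60 had an adjusted p of 0.0687, and its dimmer probe set changed by -0.09. Ei24 and Zmat3, a splicing regulator induced by p53, were bright and nearly level, with changes of 0.09 and 0.02, SE of 0.13 and 0.09, and overlapping groups.

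Among receptors of the TNF family 1 of 3 rose (33.3%, against 13.1% of all genes). Tnfrsf10b, the mouse receptor for the death ligand TRAIL, was at 16.3 and 29.8 in wildtype and at 94.3 and 118 in null cells. Wildtype was near the median of all probe sets, and the log2 change of 1.66 (SE 0.22, adjusted p = 0.0185) depended on the pseudocount, from 0.97 to 2.21 over the alternatives. Its second probe set went from 14.8 ± 1.04 to 45.4 ± 5.98 (mean ± SD, n = 2) and was called too, with a change of 0.99. Fas was dim on every array at 15.4 to 20.9, and Eda2r, an ectodysplasin receptor, was at 247 and 201 against 255 and 290; neither passed.

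Phlda3, a repressor of the survival kinase Akt and a direct p53 target, had the smallest p of the set. It was at 204 and 252 in wildtype and at 738 and 845 in null cells, a log2 change of 1.73 (SE 0.14, adjusted p = 0.00887). The genotypes did not overlap. For Cd82, a tetraspanin that restrains migration, the result depended on the probe set. The one chosen read 30.3 on both wildtype arrays and 29.1 ± 1.19 (mean ± SD, n = 2) in null cells, a change of -0.04. The other read 8.34 and 12.5 in wildtype and 50.1 and 76.2 in null cells, a log2 change of 1.57 (SE 0.21). Limma called it higher in the fit of probe sets (adjusted p = 0.0266). This probe set was tested only through its null arrays. Its wildtype mean log2 value of 4.7202 lay below the filter floor of 4.7248, so the filter favoured a rise.

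**Figure D2:**
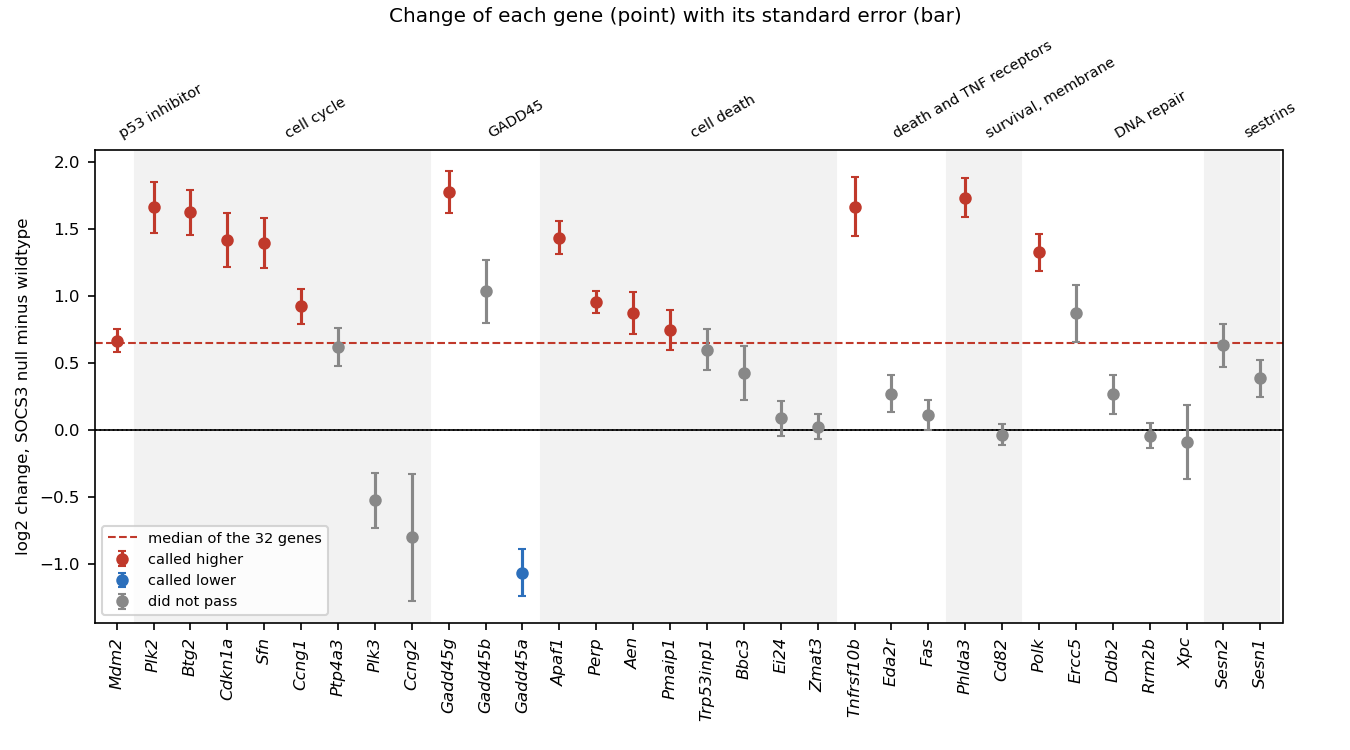
Log2 change of each of the 32 genes, SOCS3 null minus wildtype, with its standard error, by role; red points were called higher, the blue point lower and grey points did not pass. The dashed line is the median of 0.65, and the dotted line at 0.00 is the median of all genes tested.

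Of 5 genes of DNA repair and nucleotide supply 1 rose (20%, against 13.1% of all genes) and 0 fell (against 9.55%). For 3 of them both null arrays lay above both wildtype arrays (60%, against 32.3% of all genes). The gene that rose was Polk, a translesion DNA polymerase, at 136 and 116 in wildtype and 311 and 369 in null cells (log2 change 1.32, SE 0.13, adjusted p = 0.0114). Its dimmer probe set changed by 0.52 and did not pass. Ercc5, an endonuclease of nucleotide excision repair, was at 134 and 120 against 200 and 299, a change of 0.87 that missed the threshold (adjusted p = 0.062). The damage recognition genes Ddb2 and Xpc did not pass. Ddb2 was at 202 and 168 against 206 and 246, a change of 0.27 (SE 0.14), with both null arrays above wildtype. Xpc was at 72.7 and 60.9 against 44.4 and 83.3, a change of -0.09 (SE 0.28). Its groups overlapped and its null arrays lay far apart, so its direction was not settled. Rrm2b, the p53-induced subunit of ribonucleotide reductase, changed by -0.04, and its 4 probe sets by -0.15 to -0.02.

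The sestrins restrain mTORC1 and oxidative stress. Sesn2 was at 200 and 204 in wildtype and 278 and 372 in null cells, and its change of 0.63 did not pass (adjusted p = 0.0687), although its dimmer probe set, with a change of 0.40, did (adjusted p = 0.0431 over all probe sets). Sesn1 was at 154 and 135 against 214 and 173, a change of 0.38 with an adjusted p of 0.136. The other tested probe sets of Sesn1 overlapped between genotypes, with changes of -0.02 and 0.07.

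Probe sets give a second view of the same RNA. The 32 genes had 60 probe sets, of which 54 were tested, 22 rose (40.7%) and 1 fell, where 8.55% of all 27022 probe sets rose and 7.3% fell. The 22 include the Cd82 probe set that was tested only through its null arrays. Among 16 genes with several tested probe sets, the sign was shared by all probe sets of 12. For 6 of the 16 every probe set was called, for 4 only some were, and for 6 none was. Names ending in s_at, as for the chosen probe sets of Tnfrsf10b, Ddb2 and Sesn1, mark probes that can match more than 1 transcript.

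**Figure D3:**
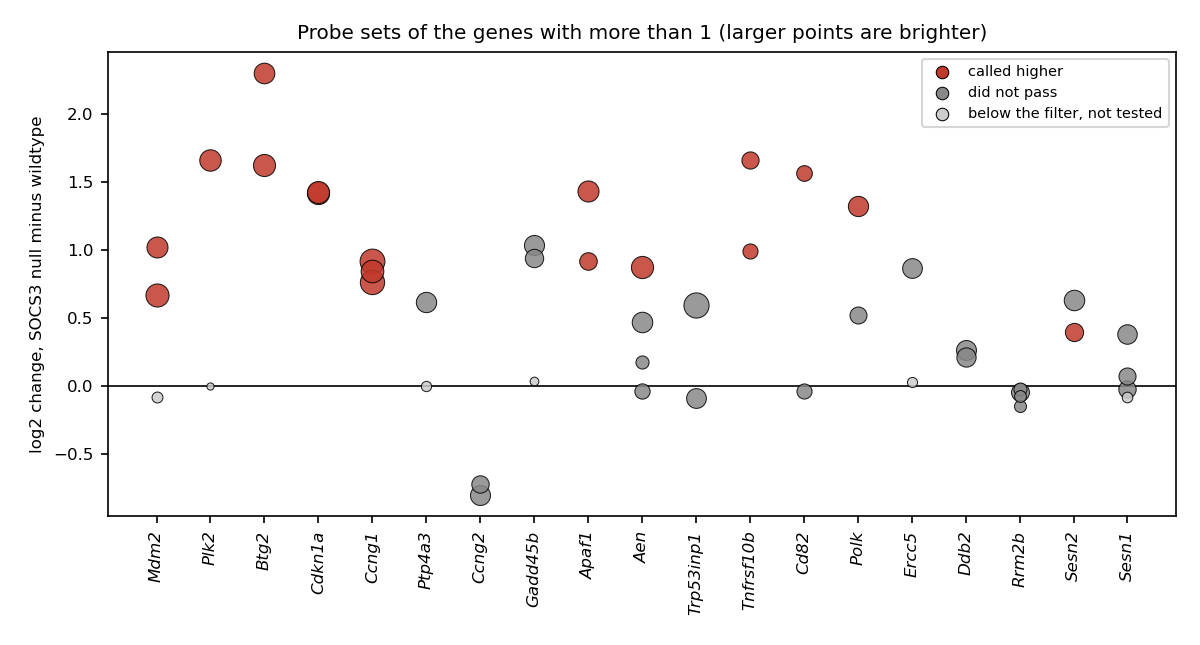
Log2 change, SOCS3 null minus wildtype, of every probe set of the genes with more than 1; larger points are brighter, red points were called higher, grey points did not pass and pale points were below the filter. Cdkn1a, Ccng1, Btg2, Apaf1 and Tnfrsf10b have only red points, and Aen, Cd82, Polk and Sesn2 have both red and grey ones.

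The SOCS3 null replicates differed in these genes. Values on null replicate 2 were above those on null replicate 1 for 28 of the 32 genes, where 48.9% of all genes tested were, with a median gap of 0.27 on the log2 scale against 0.00 over all genes. Between the wildtype arrays replicate 2 was the higher for 12 of 32, with a median gap of -0.04. Without null replicate 2 the median change of the 32 genes was 0.56, and without null replicate 1 it was 0.77. Cdkn1a, for example, changed by 1.15 and 1.68 in those cases. Fibroblast markers ran the other way: 0 of 11 were higher on null replicate 2 than on null replicate 1, and 11 of 11 were higher on wildtype replicate 2 than on wildtype replicate 1. The part of either difference between replicates in the other was not tested.

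Genes outside the set were read from 5 lists written with earlier results of these arrays known. Of 18 tested regulators of p53 5 fell (27.8%, against 9.55% of all genes) and 0 rose (against 13.1%), with a median of -0.24. The count that fell was 2 without the filter and 2 with the replicate block, and with probe sets averaged 1 fell and 1 rose. Trp53bp1, a scaffold at DNA breaks, was at 1309 and 1204 in wildtype and 684 and 730 in null cells, a change of -0.81 (SE 0.09, adjusted p = 0.0138). The damage kinase genes Atm, Chek2 and Chek1 changed by -0.67, -0.74 and -0.66, and the fifth was the dim kinase gene Hipk2 with -0.43, named after its value was seen.

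Other p53 targets went both ways, with a median of 0.23. Of 38 tested 6 rose (15.8%, against 13.1% of all genes) and 7 fell (18.4%, against 9.55%). Without the filter 2 rose. Dram1, a lysosomal membrane protein of autophagy, rose from 11.5 and 9.77 to 712 and 774, and Tap1, a peptide transporter of antigen presentation that interferon also induces, rose from 17.9 and 14.5 to 83.2 and 104. Pml, the scaffold of nuclear bodies, changed by -1.44 (SE 0.11, adjusted p = 0.00814), and Sesn3, the third sestrin and a FoxO target, by -1.28 (SE 0.13, adjusted p = 0.0118). Sesn3 was at 190 and 224 in wildtype and 69.4 and 82.7 in null cells, below wildtype on both arrays, where the chosen probe sets of Sesn1 and Sesn2 lay above it.

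In the integrated stress response, which follows phosphorylation of eIF2 alpha, 3 of 19 genes tested rose (15.8%, against 13.1% of all genes). Of the same 19 genes 1 fell (5.26%, against 9.55% of all genes). The 3 that rose were Atf3, the ER chaperone gene Hspa5 and the ER stress factor gene Xbp1. Atf3, a transcription factor of many stresses, went from 19.8 and 19.8 to 79.5 and 79.8. Hspa5 and Xbp1 changed by 0.76 and 0.44. The serine synthesis gene Psat1 fell, with -0.61. With the filter at the 60th percentile 6 genes of this list rose, and with the replicate block 0 fell. Of 18 nucleotide excision repair genes 1 fell (5.56%, against 9.55% of all genes), Rpa2 with -0.65, and 0 rose (against 13.1%). Rpa1 and Gtf2h3 changed by -0.72 and -0.58 and Ddb1 by 0.31, and none of these passed. Of 19 genes of oxidative and heat stress 2 fell (10.5%, against 9.55% of all genes) and 0 rose (against 13.1%). The glutathione synthesis genes Gclc and Gclm changed by -0.93 and -0.85, and the heat shock genes Dnajb1 and Hspb1, with 0.58 and 0.52, did not pass. With an unadjusted p under 0.05 there were 26 higher and 24 lower genes over the 112 tested in the 5 lists, of which limma called 9 and 16. Those calls were 8.04% and 14.3% of the 112, against 13.1% and 9.55% of all genes.

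**Figure D4:**
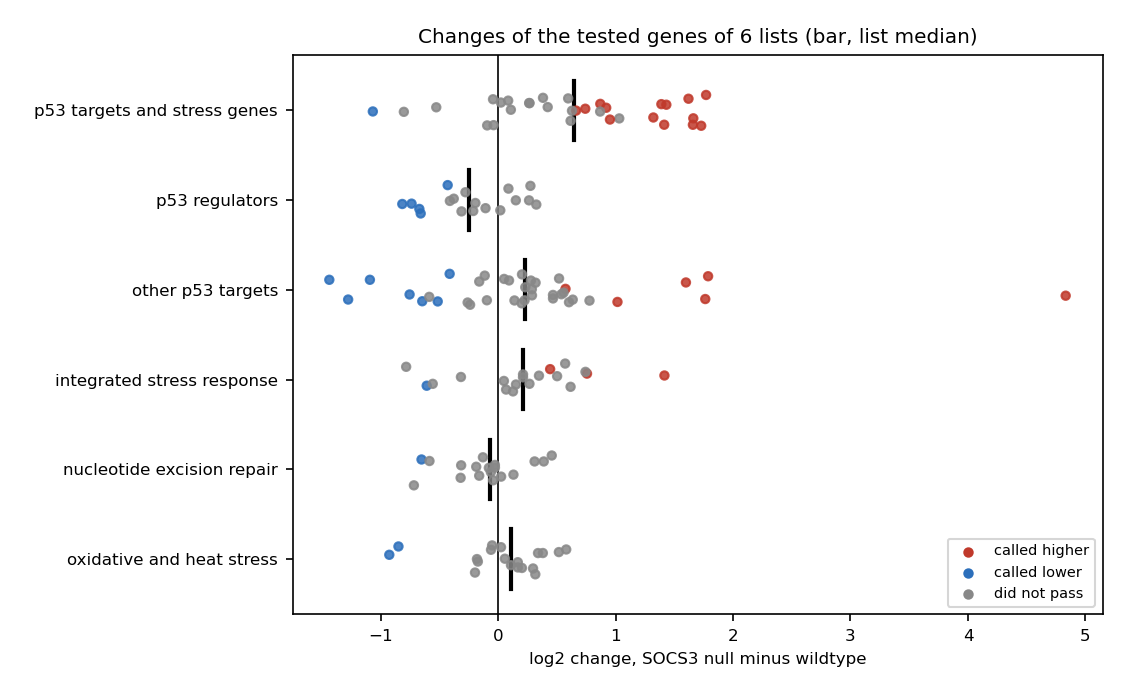
Log2 change of the tested genes of the set and of the 5 other lists, SOCS3 null minus wildtype; each point is a gene, red called higher, blue lower and grey not passed, and the bar is the median. The median is 0.65 for the set and between -0.24 and 0.23 for the other lists, and the point beyond 4 is Dram1.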

How the data were processed

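The authors deposited probe set intensity values on a linear scale for 45101 probe sets; how they were summarised and normalized is not given in the sources used here. All values were above 0 and the array medians were 15.8 to 16.0, so the values were not normalized again, and a change in total RNA per cell cannot be seen. The 64 control probe sets were left out. Gene names came from a platform annotation: 34945 probe sets had 1 symbol, 932 several and 9160 none. Each gene was fitted with limma 3.58.1 in R 4.3.3 (lmFit, eBayes, genotype as the only term, two-sided) on log2(intensity + 16), which understates the change of dim genes, with Benjamini-Hochberg adjustment over all 12732 genes. The procedure was tested on simulated data. Probe sets were fitted in the same way over 27022. The members, roles and lists were chosen with earlier results of these data known. Named genes were all members, Socs3, the marker genes and the 4 genes with the smallest p of each other list; Hipk2 and the genes of the closing section were picked outside this rule. Alternatives were other pseudocounts (1 and 64), the replicate number as a block, the probe sets of a gene averaged, eBayes with a mean-variance trend, the filter raised to the 60th percentile or dropped, arrays centred on the median or quantile normalized, and each array left out. Crossed replicate numbers and the probe set with the highest mean intensity were added as alternatives after the data were seen. Counts out of 11 alternatives include both. The number of arrays limits the precision. Figures were drawn with matplotlib 3.10.9.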

Additional observations from a re-analysis of the deposited data

How the results depend on the processing

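Without the filter on dim probe sets limma tested 18193 genes and called 953 higher and 678 lower, among them 7 and 0 of the 32 genes (19 and 1 at an unadjusted p under 0.05), 6 and 0 of their probe sets, and 5 and 10 genes of the other lists. With the filter at the 60th percentile 19 of 30 tested members rose (18.9% of all genes tested), and 14 genes of the other lists rose. As the mean of probe sets 10 genes of the other lists fell. With the replicate block 1167 genes rose and 747 fell, among them 13 and 1 of the 32 genes, 0 of their probe sets fell (1 at an unadjusted p under 0.05), and 9 genes of the other lists fell. The labels give only a number as the pairing, and deviations of same-numbered arrays correlated at -0.12 over genes. With the numbers crossed, chosen after the data were seen, 16 members rose and 2 fell. At an unadjusted p under 0.05 in that limma fit 19 members were higher and 3 lower, where 38.9% of all genes passed in either direction. With any 1 array left out limma called 0 to 0 of all genes, members, member probe sets and genes of the other lists in either direction; 2928 to 4733 genes then had unadjusted p-values below 0.05. Signs turned for genes near 0: with an array left out Ei24 ranged from -0.054 to 0.227, Fas from -0.0089 to 0.228, Rrm2b from -0.126 to 0.0404, Xpc from -0.451 to 0.266 and Zmat3 from -0.0384 to 0.087 on the log2 scale. Cd82 turned where its other probe set was used: 0.77 with a pseudocount of 64, 0.76 as the mean and, chosen after the data were seen, 1.57 by mean intensity. The median of the 32 genes stayed between 0.56 and 0.77 under every setting.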

Other observations

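Further genes of the list of other p53 targets passed the limma test; they were picked once their values were known. Dcxr, a carbonyl reductase of the xylulose pathway, was at 143 and 174 in wildtype, against 484 and 702 in null cells, and Trp53inp2, a relative of Trp53inp1 that acts in autophagy, at 84.8 and 89.8 against 163 and 227. Bid, a BH3-only gene that links death receptors to mitochondria, was at 1094 and 1247 against 512 and 570, lower on both null arrays where the BH3-only genes Pmaip1 and Bbc3 were higher on both. Tigar, a phosphatase that restrains glycolysis, was at 550 and 502 against 331 and 329.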
